A study of Mus musculus with 2 samples.

Results

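The replication-dependent histone genes were followed in single-cell RNA sequencing of MC38 tumours. They were taken as every gene whose symbol starts with Hist1h, Hist2h, Hist3h or Hist4h, which gave 67 of the 31053 genes in the count matrices. The set held 6 H1, 18 H2A, 18 H2B, 12 H3 and 13 H4 genes, with 54 on chromosome 13, 10 on chromosome 3, 2 on chromosome 11 and 1 on chromosome 6. MC38 cells, a mouse colon carcinoma line, had been injected into the right flank of C57BL/6 mice, a setting the labels call a xenograft although line and host are both mouse. From day 5, at a mean tumour size of 100 mm3, mice received either PBS (the control, which another label calls untreated) or SHP099 hydrochloride, an inhibitor of the phosphatase SHP2, at 5 mg/kg (route given as i.g.) each day for 14 days, with 6 mice per group. Each group gave 1 library, and the labels do not say how many of the mice it holds. With 1 library per group there was no replicate check and no test of the treatment, and every interval below is a 95% interval that covers counting error only.

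Replication-dependent histones package newly made DNA, and most of their genes lie in clusters and are transcribed mainly in S phase. Their mRNAs as a rule end in a conserved stem-loop, bound by the protein SLBP, in place of a poly(A) tail. Some of these genes also make polyadenylated mRNA, which has been described in differentiated and resting cells. The 3' single-cell method used here primes from runs of A, so a histone UMI (a unique molecular identifier, which counts 1 captured RNA molecule) need not stand for the whole mRNA pool of its gene.

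The control library held 8245 barcodes and 126218180 UMIs, and the SHP099 library 8263 barcodes and 112901642 UMIs. Filters left 7689 cells in each, with medians of 9185 and 10733 UMIs, and 100 barcodes occurred in both libraries. Cells were grouped by markers after clustering without the histone genes. Xist-negative cells (4191 control and 4294 SHP099) lacked the Xist RNA and the leukocyte gene Ptprc. Of their tumour markers, Hmga2, Igf2bp2, Igf2bp3, Tnfrsf12a, H19 and Tubb3 were all found in every cluster but cluster 6. By the same rule Igf2bp2, Tnfrsf12a, H19 and Tubb3 were also found in cluster 18 of the fibroblast class, but Hmga2 and Igf2bp3 were not. Krt8, Krt18 and Epcam, also fixed as markers of the line, were at or near 0 in the Xist-negative clusters except cluster 17, at 6.08, 5.53 and 11.1 CPM. In 4 of the 7 Xist-negative clusters the best-scoring list with 3 or more markers found was the fibroblast list. These 4 held 3081 of the control and 3438 of the SHP099 cells. In 1 of them, cluster 3, another list scored higher but had fewer than 3 markers found. The fibroblast list summed to 1301 and 1708 CPM in the class, against 681 and 604 CPM for the tumour list. Its members Dcn, Pdgfra, Pdgfrb, Col6a3 and Fbln1 were found in those 4 clusters. Its member Col1a1 measured 3.16 to 71.9 CPM over the 7 clusters, against 10650 CPM in cluster 18 of the fibroblast class. The cells are therefore called by their Xist level. Mononuclear phagocytes (2662 and 2756 cells, macrophage and monocyte markers) and T cells (516 and 397) were the other classes with at least 200 cells in each library. Median depth was 24301 and 20130 UMIs in Xist-negative cells, 4337 and 4201 in phagocytes, and 2389 and 2035 in T cells.

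The stem-loops of 7 members are shown because their UMI counts or their behaviour across cells carry the results below. A stem-loop was searched as the letters GGNNNT, any 4 bases, and the exact reverse complement of the first 6, within 200 bases after the stop codon of the GENCODE M21 transcript (GRCm38). Capitals mark the stem-loop, and each sequence runs 5′ to 3′ on the transcript strand.

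Hist1h4i: cttaaaGGCCCTTTTTAGGGCCaccacaaa

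Hist1h1e: cccaaaGGCTCTTTTCAGAGCCacccacaa

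Hist1h2ap: aaaaaaGGCTCTTTTCAGAGCCatc

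Hist1h2ae: aacaaaGGCTCTTTTCAGAGCCattcactt

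Hist1h1c: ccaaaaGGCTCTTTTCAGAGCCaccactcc

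Hist3h2a: accaaaGGCTCTTTTCAGAGCCacccacaa

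Hist4h4: cacaaaGGCCCTTTTCAGGGCCcacaaagc

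The stem-loop of Hist1h4i lies at chr13:22040966-22040981 on the minus strand, that of Hist1h1e at chr13:23621782-23621797 (minus), that of Hist1h2ap at chr13:21833029-21833044 (minus) and that of Hist1h2ae at chr13:23570668-23570683 (minus). The stem-loop of Hist1h1c lies at chr13:23739512-23739527 (plus), that of Hist3h2a at chr11:58955172-58955187 (plus) and that of Hist4h4 at chr6:136803998-136804013 (minus). All lie in the stretch after the stop codon, the 3' UTR. The search found the stem-loop in 45 members, with 8 distinct spellings, of which the one in Hist1h1e, Hist1h2ap, Hist1h2ae, Hist1h1c and Hist3h2a occurred in 25 members. Among 17779 other genes with a stretch of that length, 21 (0.118%) held it. In 17 members the letters were not found and the annotated transcript had under 60 bases after the stop codon. In 5 with a longer stretch the letters were not found either: Hist1h2bc, Hist2h2be, Hist1h2bp, Hist1h2bq and Hist1h2br. A stretch that is spliced out of the annotated transcript was not searched, and Hist1h2bc is annotated with 2 exons.

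The last AATAAA, the usual poly(A) signal, is shown in capitals for 3 members that were not higher in cycling cells, because the method primes from runs of A.

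Hist1h2bc: atgtatatatAATAAAtgtcatgtaaagca

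Hist1h1c: gtatgcttctAATAAAaagcgtttagtttt

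Hist3h2a: gtatatgcccAATAAAataagagtacgtgt

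These windows lie at chr13:23692452-23692481, chr13:23740332-23740361 and chr11:58956787-58956816, all on the plus strand and in the 3' UTR. The signal began 26 bases before the transcript end in Hist1h1c, 34 in Hist3h2a and 447 in Hist1h2bc. In Hist1h1c it came after the stem-loop, with 840 bases between the stem-loop and the transcript end, and in Hist3h2a this stretch measured 1643 bases. A match of letters is a description and does not show where the captured RNA ended.

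Capture was uneven. Of 151370 histone UMIs in kept cells, the H2B gene Hist1h2bc gave 29329 (19.4%), the H4 gene Hist1h4i 19483, the linker histone gene Hist1h1e 14399, and the H2A genes Hist1h2ap 12631 and Hist1h2ae 10650. The linker histone genes Hist1h1c (8668) and Hist1h1b (8581) and the H2A gene Hist3h2a (7146) followed. In all, 22 members had more than 1000 UMIs and 7 had fewer than 10. Hist1h2aa, Hist1h2ba and Hist1h2bq had 0, and the linker gene Hist1h1t, known from the testis, had 1. Families were captured unequally: H2A gave 26.7% of the UMIs, H2B 25.9%, H1 22.0% and H4 20.3%, while the 12 H3 genes gave 5.11%. The highest H3 gene, Hist1h3c, had 1857 UMIs, and the lowest, Hist1h3h, had 228.

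**Figure D1:**
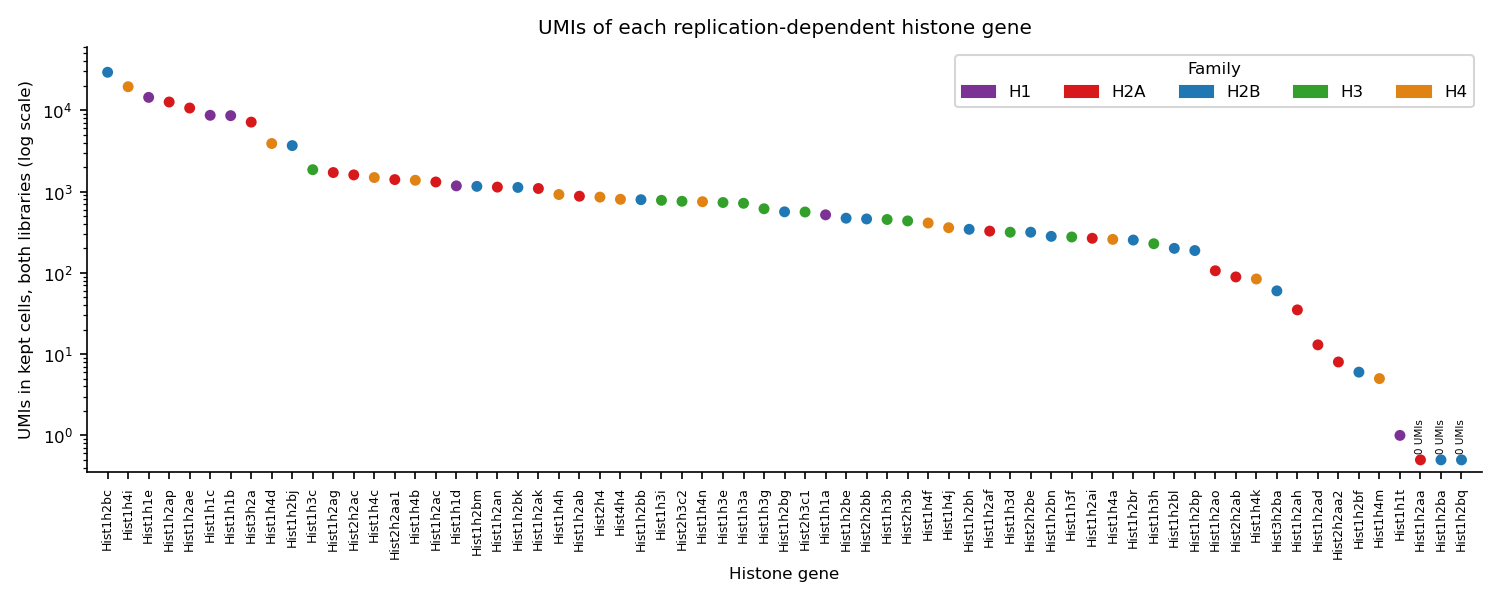
UMIs of each of the 67 histone genes in the kept cells of both libraries (vertical log axis), ranked and coloured by family; the 3 genes without a UMI are marked as 0. The points fall from 29329 for Hist1h2bc to 0, and no H3 gene passes 1857.

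The members differed in their annotated ends. The 17 with a stem-loop and an AATAAA or ATTAAA after it gave 37.6% of the UMIs. The 28 with a stem-loop and no such letters gave 32.9%. The 5 with a longer stretch and no stem-loop gave 19.9%, nearly all from Hist1h2bc. The 17 with under 60 bases after the stop codon and no stem-loop gave 9.58%. The annotated transcript of Hist1h2ap, with 12631 UMIs, ends 3 bases after its stem-loop, and its longest run of A is 12.

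Near-identical copies limit how far single members can be told apart. Of the windows of 100 bases in the last 300 bases of each transcript, 23 members shared none with another gene and gave 58.2% of the UMIs, while 29 members shared as many as they did not, or more, and gave 29.8%. All such windows of Hist1h2ap occur in another gene, most often in Hist1h2ao, which had 106 UMIs. All windows of Hist2h2aa1 (1403 UMIs) are shared too, most often with Hist2h2aa2 (8 UMIs), and those of Hist1h1e with Hist1h2be (470 UMIs), whose annotation overlaps it. The counts of these genes are uncertain, since the division of reads between copies is not described in the sources used here.

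Cell classes differed in which histone they held most of. Levels are given as CPM, the usual scaling of a gene's UMIs to all UMIs of its class, which compares cell classes for 1 gene and is not scaled by transcript length. Hist1h2bc was the highest member in Xist-negative cells, at 139 CPM in control and 133 in SHP099, and in phagocytes, at 76.3 and 74.9 CPM. In T cells it reached 32.7 and 32.3 CPM, and the highest member there was Hist1h2ap, at 175 and 152 CPM. Hist1h2ap stood at 59.8 and 52.6 CPM in Xist-negative cells and at 19.9 and 57.1 CPM in phagocytes. Hist1h2bc was higher again in the small class of fibroblasts, at 276 (interval 237 to 319) and 401 (347 to 461) CPM in 84 and 55 cells.

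Hist4h4, an H4 gene on chromosome 6, had its higher levels in phagocytes. It measured 14.8 and 13.7 CPM there, against 2.16 and 2.17 CPM in Xist-negative cells and 1.96 and 3.79 CPM in T cells. Within phagocytes it was highest in the cluster with monocyte markers, at 48.1 and 27.6 CPM from 257 and 220 cells. Hist3h2a measured 31.5 and 32.6 CPM in Xist-negative cells and 28.4 and 29.7 CPM in phagocytes. In T cells it had 9 and 13 UMIs, or 5.88 and 12.3 CPM. Its neighbour Hist3h2ba had 8 and 11 UMIs in T cells and 5 and 4 in the far deeper Xist-negative cells. Hist1h1c, at 39.3 and 38.6 CPM in all phagocytes, was highest in phagocyte cluster 7, at 93.5 and 108 CPM, where Hist1h2bc reached 135 and 154 CPM and Hist1h1b 4.03 and 16.4 CPM.

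**Figure D2:**
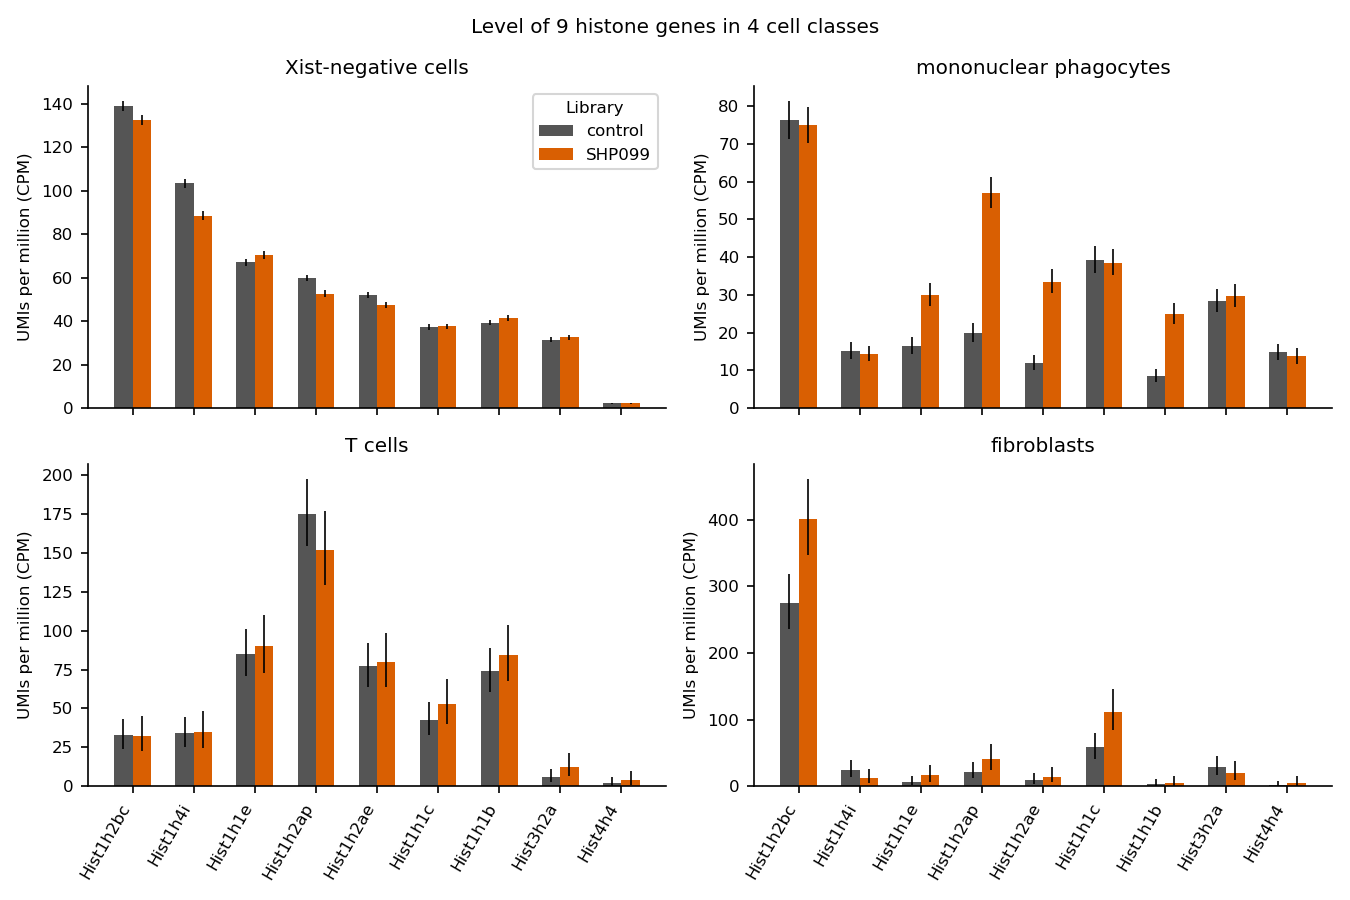
Level (CPM) of 9 histone genes in 4 cell classes, grey for the control and orange for the SHP099 library, with exact 95% Poisson intervals and a vertical scale of its own for each class. Hist1h2bc stands highest in 3 classes and Hist1h2ap in T cells, while Hist4h4 reaches 14.8 CPM in phagocytes and stays under 5 in the other classes drawn.

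Free RNA from broken cells adds UMIs to every droplet. Phagocytes and T cells carried 116 and 62.7 CPM of the tumour marker list in control, against 681 in Xist-negative cells, and 100 and 53.1 CPM against 604 in SHP099. Markers of erythroid cells summed to 30.9, 2.04 and 22.9 CPM in Xist-negative cells, phagocytes and T cells of the control library and to 132, 21.6 and 316 CPM in SHP099. The part of such RNA in the histone values was not tested.

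The share of cells with any histone UMI, after each cell was drawn down to 2000 UMIs and shallower cells left out, was 62.3% (interval 60.8 to 63.8) and 58.1% (56.6 to 59.6) in Xist-negative cells. In phagocytes it was 33.9% (32.0 to 35.8) and 38.4% (36.5 to 40.4), and in T cells 45.0% (39.5 to 50.5) and 50.2% (43.1 to 57.4). Of the T cells, 189 in control and 196 in SHP099 were left out. Before drawing down, the shares were 97.4% and 97.3%, 50.8% and 55.6%, and 45.3% and 46.9%.

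Most members were higher in Xist-negative cells that also carried RNAs of DNA replication and mitosis. Cells were put in bins by the summed UMIs of 35 DNA replication genes and of 30 mitosis genes, with no histone gene in either list, after drawing cells down to 5000 UMIs in Xist-negative cells and 2000 in the other classes. Each list was divided at its 75th percentile in the class. In Xist-negative cells the summed histone level in control was 460 CPM where both lists were low, 721 where replication was high, 1152 where both were high and 971 where mitosis was high. In SHP099 these levels were 428, 803, 1316 and 936 CPM. Cells high in both also had more UMIs, with medians of 32789 and 28333 against 21707 and 18452 in cells low in both. A rise with replication alone was not seen in every class. Phagocytes high in replication alone measured 226 CPM in control and 212 in SHP099, against 251 and 249 where both lists were low. T cells measured 514 and 215 CPM, against 214 and 234.

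**Figure D3:**
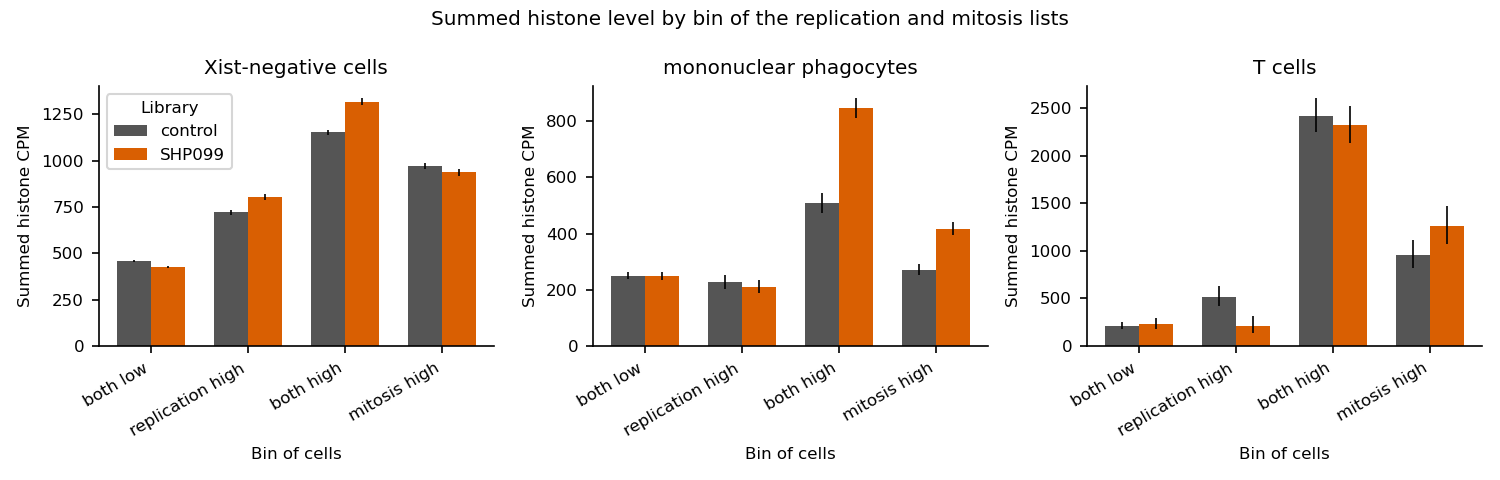
Summed CPM of the 67 histone genes in 4 bins of cells for 3 classes, grey for control and orange for SHP099, with exact 95% Poisson intervals. In each class and library the cells high in both lists have the highest bar, up to 2416 CPM in T cells.

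Single members were compared between cells high in both lists and cells low in both where each library had at least 20 UMIs. In Xist-negative cells 56 members had this number. Of these, 48 had an interval above 0 in both libraries, against 26.9% of the 12280 genes so examined, and 2 had one below 0 in both, against 19.3%. The median log2 ratio over the 56 was 1.97 in control and 2.34 in SHP099, beside 0.01 and 0.02 over all genes examined.

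Of the 5 linker histone genes with enough UMIs, 4 were higher in both libraries. Hist1h1b went from 4.02 CPM in low cells to 104 CPM in high cells in control and from 4.28 to 138 CPM in SHP099, log2 ratios of 4.70 (interval 4.49 to 4.92) and 5.01 (4.81 to 5.21). Hist1h1a, also a linker histone gene, followed with 4.67 and 4.76, from levels of 0.26 and 0.24 CPM in low cells. Hist1h1e went from 16.4 to 160 CPM and from 21.2 to 200 CPM. Hist1h1c measured 42.3 and 31.2 CPM in control, a log2 ratio of -0.44 (interval -0.57 to -0.31), and 39.3 and 35.8 CPM in SHP099, a ratio of -0.13 (-0.27 to 0.01), so it was not below 0 in both libraries.

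Among H2A genes, 12 of 14 with enough UMIs were higher in both libraries. Hist1h2ap went from 6.78 to 146 CPM in control and from 6.19 to 168 CPM in SHP099, log2 ratios of 4.43 and 4.76. Hist1h2ae went from 10.5 to 113 CPM and from 10.1 to 135 CPM. Hist3h2a alone among the H2A genes was lower in both, at 33.7 against 29.8 CPM and 36.2 against 31.2 CPM, log2 ratios of -0.18 and -0.22. Hist2h2ab, with intervals from -0.96 to 1.66 in control and from 0.29 to 2.82 in SHP099, was not above 0 in both.

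The H2B gene Hist1h2bc showed the opposite pattern from the other H2B genes. It went from 197 to 63.4 CPM in control, a log2 ratio of -1.64 (interval -1.72 to -1.55), and from 178 to 55.4 CPM in SHP099, a log2 ratio of -1.68 (-1.79 to -1.58). Of the 14 H2B genes with enough UMIs, 11 were higher in both libraries, among them Hist1h2bj, which went from 8.40 to 30.1 CPM and from 7.62 to 33.6 CPM. Hist2h2be and Hist1h2be had intervals that spanned 0 in each library.

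Of 12 H3 genes, 10 were higher in both libraries. Hist1h3c, the most captured, went from 3.35 to 18.3 CPM and from 2.32 to 19.1 CPM. Hist2h3c1 and Hist2h3c2 had ratios with intervals that spanned 0, at -0.32 and -0.43 for the first and -0.08 and -0.10 for the second. All 11 H4 genes with enough UMIs were higher in both, but by less, with a family median of 1.04 and 1.71. Hist1h4i went from 55.4 to 157 CPM and from 50.4 to 164 CPM, and Hist4h4 from 1.56 to 2.66 CPM and from 1.43 to 3.51 CPM.

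**Figure D4:**
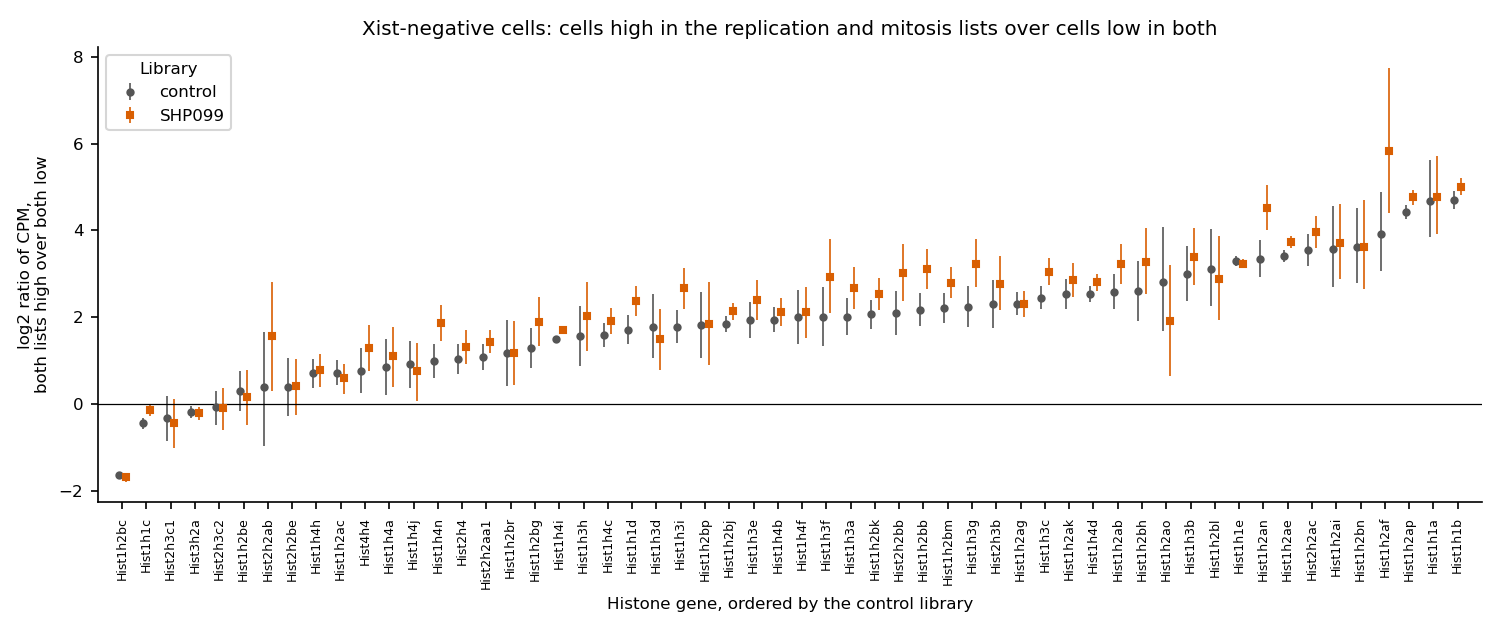
Log2 ratio of CPM in Xist-negative cells high in both the replication and mitosis lists over cells low in both, for the 56 histone genes with at least 20 UMIs in each library; circles are control, squares SHP099, and lines are exact 95% intervals. Hist1h2bc stands lowest near -1.6 and Hist1h1b among the highest near 5, with 48 genes above 0 in both libraries.

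The 8 members that were not higher in both libraries fell unevenly over the kinds of annotated end. All 18 members with a stem-loop and under 100 bases after it that had enough UMIs were higher, with a median of 2.19 in control and 2.60 in SHP099. So were the 3 with 100 or more but under 300 bases after it. Of the 18 with 300 or more bases after the stem-loop, 13 were higher, with medians of 1.27 and 1.41. The other 5 were Hist1h1c, Hist1h2be, Hist2h3c1, Hist2h3c2 and Hist3h2a. Of the 4 without a stem-loop in the searched stretch, Hist1h2bc was lower, Hist2h2be spanned 0 and 2 were higher. The last of the 8, Hist2h2ab, has under 60 annotated bases after the stop codon, with no stem-loop found in them. These groups of ends were drawn up with the values known and were not tested.

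In phagocytes 14 members had enough UMIs for the same ratio. Of these, 7 were above 0 in both libraries, against 10.8% of 9357 genes, and 2 were below, against 5.02%. Hist1h2ap went from 2.40 to 106 CPM in control and from 3.84 to 211 CPM in SHP099, and Hist1h1b from 1.71 to 44.7 CPM and from 1.15 to 92.8 CPM. The 2 lower members were Hist1h2bc, at 88.7 against 47.1 CPM and 78.2 against 45.3 CPM, and Hist1h1c, at 46.1 against 33.7 CPM and 41.1 against 31.1 CPM. The other 5, Hist1h4i, Hist1h3e, Hist2h2aa1, Hist3h2a and Hist4h4, were neither above nor below 0 in both libraries. In this class the mitosis list was divided at 1 UMI, and 2064 of 2355 control and 1945 of 2440 SHP099 cells lay at that number or 1 below it, so its bins are coarse.

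T cells had 7 members with enough UMIs, of which 5 were above 0 in both libraries, against 10.6% of 3065 genes, and none below, against 5.15%. The summed histone level went from 214 CPM in cells low in both lists to 2416 CPM in cells high in both in control, and from 234 to 2323 CPM in SHP099, from 52 and 44 high cells.

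Lists of other histone genes and factors had lower medians along the same contrast in Xist-negative cells than the members, at 1.97 and 2.34, although single genes moved further. In Xist-negative cells 8 of 10 histone variant genes with enough UMIs were higher in both libraries, with a median of 0.68 and 0.91. H2afx, whose product is phosphorylated at DNA breaks, went from 43.5 to 184 CPM in control and from 35.7 to 193 CPM in SHP099, while H3f3a, which encodes the replication-independent H3.3, went from 529 to 659 CPM and from 519 to 635 CPM. Of 20 factors of histone mRNA, 16 were higher in both, and Slbp, which encodes the stem-loop binding protein, went from 31.8 to 72.0 CPM and from 33.5 to 80.6 CPM. Of 14 histone chaperone genes, 13 were higher in both, with medians of 0.92 and 1.04.

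Between the libraries, the histone level of Xist-negative cells was close. The 67 members summed to 727 CPM (interval 721 to 732) in control and 682 CPM (676 to 687) in SHP099, a log2 ratio of -0.09 (-0.11 to -0.08). Of the 10 members at 10 CPM or more in 1 library, 0 were 1.5-fold higher, against 1.12% of the 7033 genes at that level, and 0 were 1.5-fold lower, against 0.227%. Their median log2 ratio was -0.07, beside 0.02 over those genes. Hist1h4i, at 103 and 88.6 CPM, had the lowest ratio, -0.22 (-0.26 to -0.18), and Hist1h1b, at 39.2 and 41.3 CPM, and Hist1h1e, at 67.0 and 70.5 CPM, the highest, both 0.07.

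Counting intervals are narrow at this depth. Over all 67 members, 22 had an interval below 0, against 13.9% of the 19195 genes with a UMI in this class, and 4 had one above 0, against 24%. The families differed: H3 genes summed to 38.7 and 33.5 CPM (log2 -0.21), H4 genes to 156 and 138 CPM (-0.17), H2A genes to 192 and 177 CPM (-0.12), and H1 genes to 151 and 157 CPM (0.05). The share of cells high in both cycle lists was 16.1% in control and 11.4% in SHP099, and the level in those cells was 1152 and 1316 CPM. An alternative added after the data were seen held each bin at its share of UMIs, not of cells, in the control library. With it the direction turned, to a log2 ratio of 0.05 for the sum and 0.11 for the median. The proliferation genes Pcna (72.5 and 55.1 CPM), Mki67 (47.3 and 43.0 CPM) and Top2a (215 and 198 CPM) were lower in SHP099, and the 35 replication genes summed to 1182 and 1007 CPM, a log2 ratio of -0.23.

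Phagocytes of the SHP099 library had more histone UMIs. The members summed to 289 CPM (interval 279 to 298) in control and 418 CPM (407 to 429) in SHP099, a log2 ratio of 0.53 (0.47 to 0.60). Of the 9 members at 10 CPM or more, 4 were 1.5-fold higher, against 4.0% of 6858 genes, and 0 were 1.5-fold lower, against 1.66%. The 4 were Hist1h2ap, Hist1h2ae, Hist1h1b and Hist1h1e, all among the members that followed the cycle lists. Hist1h1b entered the 9 only through the SHP099 library, and of the 8 members at 10 CPM or more in both libraries 3 were higher.

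Hist1h2ap measured 19.9 CPM in control and 57.1 CPM in SHP099, from 244 and 736 UMIs, a log2 ratio of 1.52 (interval 1.31 to 1.73). Hist1h2ae measured 12.02 and 33.5 CPM, a ratio of 1.48 (1.21 to 1.76). Hist1h1b measured 8.58 and 25.1 CPM, a ratio of 1.55 (1.22 to 1.88). Hist1h1e measured 16.4 and 30.1 CPM, a ratio of 0.87 (0.62 to 1.13), and it was under 1.5-fold with doublets kept, with clusters weighted alike, without cluster 4 or with bins held at the control shares. For each of the 4 the CPM intervals of the libraries did not overlap. The 4 were picked for their ratio in these same values, so this adds no support. The share of all genes without overlap was not computed.

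The other 5 members at this level lay close to 0. Hist1h2bc measured 76.3 and 74.9 CPM, a log2 ratio of -0.03 (interval -0.16 to 0.11), and Hist1h1c 39.3 and 38.6 CPM, a ratio of -0.03 (-0.21 to 0.16). Hist3h2a (28.4 and 29.7 CPM), Hist4h4 (14.8 and 13.7 CPM) and Hist1h4i (15.1 and 14.4 CPM) had intervals that spanned 0. Thus the median of the 9 was 0.06, beside 0.05 over all genes at that level, although the sum was higher. The 58 members under 10 CPM summed to 57.6 and 101 CPM, a log2 ratio of 0.80 (0.67 to 0.94). Over all 67 members, 22 had an interval above 0, against 14.3% of 15951 genes, and 0 had one below 0, against 8.29%.

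**Figure D5:**
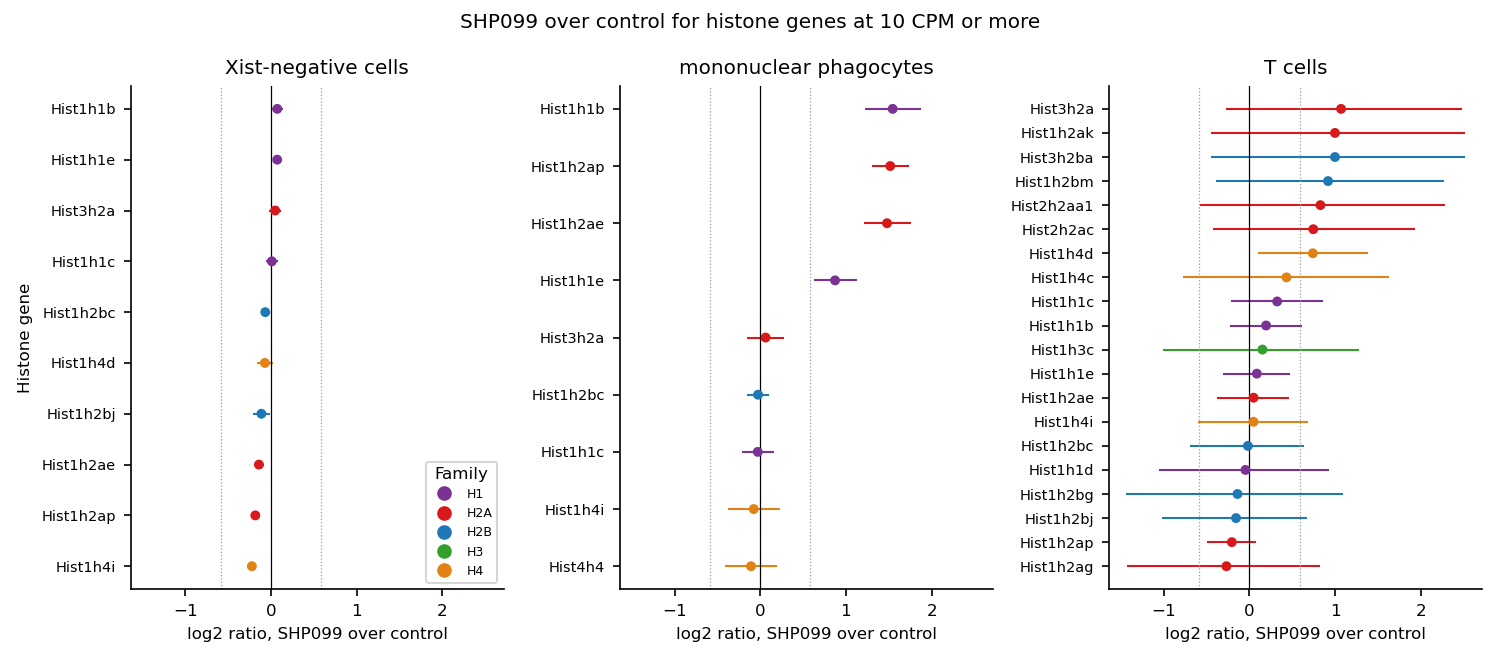
Log2 ratio of SHP099 over control for the histone genes at 10 CPM or more in 1 library, in 3 classes, coloured by family with exact 95% counting intervals; dotted lines mark 1.5-fold. The 10 genes of Xist-negative cells lie near 0, 4 of 9 in phagocytes lie past the upper line, and the T cell intervals are wide.

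The size of the phagocyte difference varied between bins and between clusters, and its cause was not tested. The share of cells high in both cycle lists was 11.2% in control and 17.99% in SHP099, and histones in those cells measured 508 and 846 CPM. In cells low in both lists they measured 251 and 249 CPM, and in cells high in mitosis alone 271 and 417 CPM. Cells high in both lists were not matched between the libraries, since their mitosis list summed to 1331 CPM in control and 2319 CPM in SHP099. With bins held at the control shares of UMIs, the log2 ratio of the sum was 0.35. Cluster 4 held 781 control and 1272 SHP099 cells and went from 291 to 501 CPM. Without it the ratio was 0.25, and Hist1h2ap, Hist1h2ae and Hist1h1b were 1.5-fold higher while Hist4h4 was 1.5-fold lower. With doublets kept the ratio was 0.37, and with the 5 clusters weighted alike 0.27.

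The share of cells with a Hist1h2ap UMI in cluster 4, after drawing down to 2000 UMIs, was 2.87% (interval 1.78 to 4.35) in control and 9.47% (7.85 to 11.3) in SHP099, at median depths of 4831 and 4544 UMIs. Before drawing down it was 5.12% and 14.1%. In the monocyte-marked cluster 12 the mitosis list summed to 284 and 236 CPM. There 1 of 195 control and 1 of 178 SHP099 cells had a Hist1h2ap UMI after drawing down. These shares were 0.513% (interval 0.013 to 2.82) and 0.562% (0.014 to 3.09), at median depths of 2544 and 2579 UMIs.

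Other genes of the cell cycle moved in the same direction in phagocytes. The 30 mitosis genes summed to 463 and 937 CPM, a log2 ratio of 1.02 (interval 0.97 to 1.06). Of 26 at 10 CPM or more in 1 library, 25 were 1.5-fold higher, but 12 of these reached 10 CPM only in SHP099. Of the 14 at that level in both libraries, 13 were higher. Mki67, a marker of cycling cells, measured 12.5 and 41.1 CPM, and Top2a, which untangles DNA before division, 43.7 and 106 CPM. The 35 DNA replication genes summed to 598 and 839 CPM, a log2 ratio of 0.49 (0.44 to 0.53), and 9 of the 22 at 10 CPM or more in both libraries were 1.5-fold higher. Hells measured 14.1 and 28.3 CPM and Rrm2 20.03 and 38.9 CPM, while Pcna measured 95.7 and 103 CPM.

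Some genes that serve histones were past 1.5-fold in phagocytes, where 4.0% of 6858 genes were 1.5-fold higher and 1.66% were 1.5-fold lower. Of 16 measured factors of histone mRNA, 1 was higher, the cyclin gene Ccne2 (5.31 and 10.9 CPM), which was measured only through SHP099, and Slbp measured 75.5 and 81.0 CPM. Of 12 measured chaperone genes, 1 was 1.5-fold higher, Asf1b (12.2 and 27.8 CPM), and their median was 0.26. Of 9 measured variant genes, H2afx (32.0 and 50.4 CPM) and H2afv (98.0 and 152 CPM) were 1.5-fold higher, and H3f3a measured 1038 and 1001 CPM.

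In T cells the interval of the summed ratio spanned 0. The members summed to 789 CPM (interval 746 to 835) in control and 849 CPM (794 to 906) in SHP099, a log2 ratio of 0.10 (-0.02 to 0.23). This ratio was 0.34 with clusters weighted alike and -0.03 with bins held at the control shares. The bins hold only cells with 2000 UMIs or more, which left out 189 of 516 control and 196 of 397 SHP099 cells. Of 20 members at 10 CPM or more, 7 were 1.5-fold higher, against 11.3% of 6924 genes, and 0 were 1.5-fold lower, against 7.11%. Of the 7, 6 were under 10 CPM in control and entered only through the SHP099 library, in which they were higher, while Hist1h2bb, at 9.79 and 4.74 CPM, was just under the minimum. The counts in each direction are therefore shaped by the minimum. Of the 12 members at 10 CPM or more in both libraries, 1 was 1.5-fold higher. With size factors 4 were higher. The median over the 20 was 0.17, beside 0.07 over those genes, and is shaped by the minimum in the same way.

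Of those 7, only Hist1h4d, with 40 and 46 UMIs (26.1 and 43.6 CPM), had an interval above 0, from 0.10 to 1.39. The other 6 rested on 8 to 15 UMIs per library. Over all 67 members, 2 had an interval above 0, against 5.46% of 12994 genes, and 0 had one below 0, against 2.58%. Besides Hist1h4d this was the H3 gene Hist2h3b, with 1 and 7 UMIs. The 4 highest members had 84 to 268 UMIs per library: Hist1h2ap at 175 and 152 CPM, Hist1h1e at 84.9 and 90.1 CPM, Hist1h2ae at 77.0 and 79.7 CPM and Hist1h1b at 73.8 and 84.4 CPM, each with an interval of the ratio that spanned 0. With each cell counting alike, 2 members were 1.5-fold higher and 2 lower.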

How the data were processed

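UMI counts per gene and cell barcode were deposited by the authors as filtered matrices, 1 per library, produced by Cell Ranger with mm10 (GRCm38), according to the submitters' processing notes. Software version 3.1.0 stands in the matrices, per the file headers, and which gene annotation was counted was not given in the sources used here. Tumours were dissociated with a kit and libraries made with the 10x Chromium 3' method, per the labels' protocols. The gene and barcode columns that the authors deposited beside the counts hold names only.

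A barcode needed 200 genes and no more than 20% mitochondrial UMIs. Under the gene minimum fell 99 control and 103 SHP099 barcodes, and over the mitochondrial limit 194 and 260. Scrublet, run per library, called 263 and 211 doublets (3.31% and 2.67% of passing barcodes, where 6.36% and 6.32% were expected), which were removed. Cells of both libraries were clustered together with scanpy 1.11.5 (2000 variable genes without histone, cell cycle, mitochondrial, ribosomal, haemoglobin and immunoglobulin genes, 30 principal components, 15 neighbours, Leiden resolution 1.0). Clusters were named by the best-scoring marker list with 3 or more markers found, with levels taken relative to the 25th percentile of clusters. A marker was found if 10% of cells had it and its level was at least 2 times that percentile. Clusters with Xist under 0.1 of the median cluster and Ptprc under 50 CPM were kept apart as Xist-negative cells, in the place of the tumour class first planned. The baseline and both limits were chosen after the data were seen.

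UMIs were summed per class and library and divided by the class total (CPM), with exact Poisson intervals for levels, exact conditional binomial intervals for log2 ratios and exact (Clopper-Pearson) intervals for shares. Printed ratios of members hold no prior, while medians and 1.5-fold calls use a prior of 0.5 CPM. Members at 10 CPM or more in 1 library are called measured. All members could be named. Of the other lists, those with the 3 largest and 3 smallest ratios in a class could be, and always Mki67, Pcna, Slbp, Npat, H2afz, H2afx, H3f3a, H3f3b, H1f0, Top2a and Mcm5. The members, lists and tests were chosen with earlier results of these data known. The ratios and intervals were tested on simulated data. All 67 members matched GENCODE M21 by gene identifier, and sequences were read from its transcripts. Alternatives changed the scaling, filters, doublets, weights, minimum level and bins. Tools were Python 3.11.15, numpy 2.4.6, scipy 1.17.1, pandas 2.3.3 and matplotlib 3.10.9.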

Additional observations from a re-analysis of the deposited data

Results flagged for a closer look

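The summed histone level differed in direction between classes under the same contrast: the log2 ratio of SHP099 over control was 0.53 in mononuclear phagocytes and -0.09 in Xist-negative cells, a difference of 0.63. Hist1h2ap (1.52 and -0.18) differed by 1.70 and Hist1h2ae (1.48 and -0.14) by 1.62. With 1 library in each group these differences were not tested. All 3 rest on classes of the same 2 libraries.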

How the results depend on the processing

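Of the values recomputed under another setting, 89 stayed within the limits set and 47 moved. With bins held at control shares the sums of Xist-negative and T cells and the median of Xist-negative cells turned sign. In Xist-negative cells the summed log2 ratio (-0.09) was -0.11 with median-of-ratios size factors, -0.15 with each cell counting alike, -0.050 with clusters weighted alike and 0.050 with bins held at control shares. The median (-0.07) was -0.090, -0.12, -0.035 and 0.11 under the same settings, -0.089 with a 5 CPM minimum and -0.12 with none. In phagocytes the sum (0.53) was 0.45 with each cell alike, 0.37 with doublets kept, 0.27 with clusters alike, 0.25 without cluster 4 and 0.35 with bins held. The median (0.06) was 0.20, 0.32, 0.17, 0.16 and 0.16 there, 0.74 with a 5 CPM minimum and 0.52 with none. Members 1.5-fold higher (4) became 7 and 29 with these minimums and 3 with clusters alike, without cluster 4 or with bins held, where Hist1h1e was lost each time. With doublets kept Hist1h4d took the place of Hist1h1e, and 1 member was lower without cluster 4.

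In T cells the sum (0.10) was 0.34 with clusters alike. It was 0.26 over binned cells only and -0.026 with bins held, 2 values from the same cells. The median (0.17) was 0.019 with size factors, 0.0060 with bins held and 0.31 over binned cells. Members higher (7) became 4 with size factors, 2 with each cell alike and 14 with no minimum. Members lower (0) became 2 with each cell alike, 2 with clusters alike, 1 without cluster 15, 3 with bins held, 2 over binned cells, 3 at 5 CPM and 5 with no minimum. The log2 ratio of cells high over low in both lists in Xist-negative cells (1.32 control, 1.62 SHP099) was 0.89 and 1.31 with bins at the 90th percentile and 1.23 and 1.57 when drawn down to 2000 UMIs. In phagocytes (1.02 and 1.77) it was 2.02 and 2.27 at the 90th percentile. Causes were not tested, beyond the fewer cells or genes each setting leaves. Leaving out a cluster, holding bins and using binned cells only were chosen after seeing the data. No paired analysis was possible because each group has 1 library.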

Other observations

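Classes too small to be compared gave the following values. In NK cells (99 control and 54 SHP099 cells) the members summed to 400 CPM (interval 338 to 470) in control and 838 CPM (718 to 972) in SHP099, from 146 and 174 UMIs. In dendritic cells (85 and 79 cells) they summed to 237 CPM (188 to 295) and 497 CPM (434 to 567), from 81 and 222 UMIs. In both classes the intervals of the sum did not overlap, but these intervals cover counting error only and not the spread between cells. The share of all genes without overlap was not computed in these classes, and the differences were not tested. Single members of NK cells rested on few UMIs. Hist1h2ap had 26 and 11 UMIs (71.2 and 52.9 CPM) and Hist1h4i 12 and 5 (32.9 and 24.1 CPM), both with ratio intervals that spanned 0. Hist1h2ae had 4 and 14 UMIs (11.0 and 67.4 CPM) and Hist1h1b 5 and 17 (13.7 and 81.8 CPM), both with ratio intervals above 0. In dendritic cells Hist1h2ae had 3 and 18 UMIs and Hist3h2a 11 and 12 (32.2 and 26.9 CPM).

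In endothelial cells (30 and 45 cells) the sum was 636 and 568 CPM, but its makeup differed. Hist1h2bc measured 179 CPM (138 to 227) in control and 327 CPM (272 to 390) in SHP099, while Hist1h2ap measured 78.5 CPM (52.6 to 113) and 10.6 CPM (2.88 to 27.0), from 29 and 4 UMIs. In the same cells the mitosis list summed to 1638 and 607 CPM. In fibroblasts (84 and 55 cells) Hist1h1c measured 58.2 CPM (41.2 to 79.9) and 112 CPM (84.3 to 146).

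The highest histone level of any Xist-negative cluster was in cluster 17, at 1641 and 1507 CPM in 180 and 184 cells. These cells were shallow for their class, with medians of 7274 and 9110 UMIs, and their median mitochondrial share was 8.31% and 7.88%. Malat1, a nuclear RNA, measured 49169 and 45804 CPM there.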
